A study of Rattus norvegicus with 6 samples.

Results

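The transcripts described here are those of 8 receptors through which growth factors and cytokines act on haematopoietic progenitors: Kit, Flt3, Csf1r, Csf2ra, Il3ra, Csf2rb, Il6st and Il1rl1. They were taken by gene symbol from 17172 genes and loci listed for the series, and all 8 passed the filter on low counts that left 13547 genes for testing. The cells were c-kit+ bone marrow cells of ACI rats aged 6 to 8 weeks, purified with a biotinylated antibody to c-kit, the protein encoded by Kit. Rats of the PHZ group had received phenylhydrazine, a compound that damages red cells and causes haemolytic anaemia, by intraperitoneal injection at 100 mg/kg. Those of the PBS group had received phosphate-buffered saline, and each group held 3 samples. Marrow was collected after 36 h. Per the labels each group held 2 female samples and 1 male sample, and a poly(A) RNA library was made from each sample. The comparison of PHZ with PBS asks how acute haemolytic stress alters the transcripts of marrow progenitors.

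Kit, Flt3 and Csf1r are receptor tyrosine kinases of one structural family. KIT binds stem cell factor and acts in stem cells, early erythroid cells and mast cells, FLT3 in multipotent and early lymphoid progenitors and dendritic cell precursors, and CSF1R in monocytes and macrophages. The alpha chains encoded by Csf2ra and Il3ra bind GM-CSF and interleukin-3 and signal through the common beta chain encoded by Csf2rb. Il6st encodes gp130, the signalling chain shared by the interleukin-6 family of cytokines, and Il1rl1 encodes ST2, the interleukin-33 receptor, which is known from mast cells, basophils and innate lymphoid cells.

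The libraries held 13196249 to 19492793 expected counts, the estimated number of reads assigned to a gene. Kit transcript was present in all 6, at 8.36 to 15.5 FPKM (fragments scaled to transcript length and library depth). The selected cells were not of 1 lineage: Hba1, an alpha globin gene, had 57447 to 149797 CPM (counts scaled to the library total), and Lyz2, a lysozyme gene of myeloid cells, 7379 to 14632 CPM. Transcripts of 3 Y-linked genes went against the label in 3 libraries: they summed to 162 CPM in PHZ replicate 3 and 210.0 CPM in PBS replicate 1, both labelled female, and to 0.061 CPM in PBS replicate 2, labelled male. In bulk libraries of this kind, fewer cells of a type and less RNA per cell cannot be told apart. The labels number 3 samples per group without stating that each came from a separate rat, so p-values measure the spread between these 6 libraries, which may in part be technical. The purity of the selected cells is not given in the sources used here.

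Compared per length, the receptors formed the same broad order in both groups. The highest group means were those of Csf2ra (60.2 ± 10.6 FPKM in PHZ and 96.4 ± 28.7 FPKM in PBS libraries; SD, n = 3 each), Csf1r (60.0 ± 25.9 and 70.1 ± 23.6 FPKM) and Csf2rb (50.5 ± 19.4 and 57.7 ± 10.01 FPKM). Neighbours among these 3 genes overlapped in both groups, while Csf2ra lay above Csf2rb without overlap in PBS libraries, at no less than 69.6 FPKM against at most 68.8 FPKM. Csf1r led in PHZ replicate 1 and PBS replicate 1 while Csf2ra led in the other 4 libraries. Il3ra came next in all 6 libraries, at 16.4 ± 2.24 FPKM in PHZ and 28.5 ± 10.5 FPKM in PBS libraries, and its range lay below that of Csf2rb in both groups. Kit followed Il3ra in all 6 libraries. Its range overlapped that of Il3ra in PHZ but not in PBS libraries, and it lay above the ranges of Il1rl1, Il6st and Flt3 in both groups. These last 3 genes stood at 4.36 ± 2.04, 2.08 ± 1.34 and 1.66 ± 0.91 FPKM in PHZ and at 5.57 ± 0.31, 4.08 ± 2.47 and 3.95 ± 0.20 FPKM in PBS libraries, and neighbours among them overlapped. In cells selected through the KIT protein, Csf1r transcript was therefore 3.12 to 10.1 times that of Kit in PHZ and 3.91 to 7.57 times in PBS libraries, per length.

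**Figure D1:**
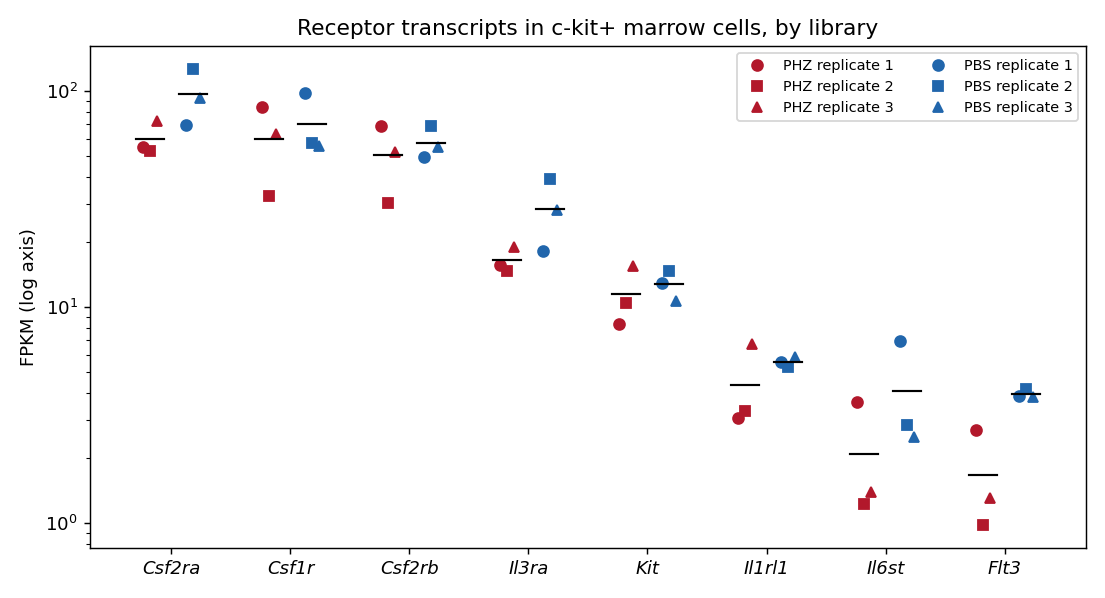
FPKM of the 8 receptor genes on a log axis, PHZ libraries in red left of PBS libraries in blue, 1 symbol per replicate number and a black line at the group mean. Csf2ra, Csf1r and Csf2rb lie highest, Kit lies in the middle, and only for Flt3 do the 3 PHZ values all lie below the 3 PBS values.

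None of the 8 receptors was called in PHZ against PBS at an edgeR adjusted p under 0.05, where 13.2% of all tested genes were called, 8.99% higher and 4.17% lower in PHZ. Of these calls 68.3% were higher in PHZ, against 58.7% with upper-quartile scaling and 55.1% with DESeq2. All 8 estimates were below 0, with a median log2 fold change of -0.43, against -0.04 over all tested genes, of which 7102 of 13547 had an estimate below 0. Flt3, Csf2ra and Il3ra had an unadjusted p under 0.05 and lower values in PHZ, as had 15.3% of all tested genes. Flt3 was the 1 receptor whose PHZ and PBS values did not overlap, which held, on the lower side, for 19.2% of all tested genes. In the authors' deposited table Flt3 is the 1 member marked as lower in PHZ, with a log2 ratio of -1.25 and a Probability of 0.97, among 1183 genes so marked (6.89% of the table).

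**Figure D2:**
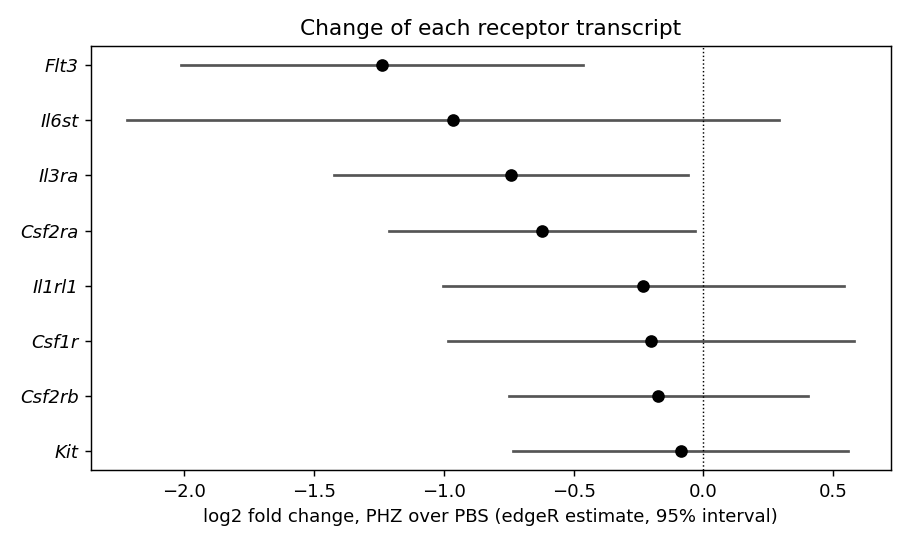
Estimated log2 fold change of each receptor transcript, PHZ over PBS, as points with 95% intervals from edgeR's quasi-likelihood fit, lowest estimate at the top. All 8 points lie left of the dotted line at 0, and the intervals of Flt3, Il3ra and Csf2ra do not reach it.

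Flt3 had the largest estimated difference. Its transcript stood at 9.06, 4.06 and 4.83 CPM (scaled by TMM) in PHZ replicates 1, 2 and 3, against 13.4, 14.4 and 14.6 CPM in PBS replicates 1, 2 and 3. The PBS values lay close together, with a coefficient of variation of 4.5%, while that of the PHZ values was 45.0%, with replicate 1 at 2.04 times the mean of the other 2. The estimate was a 2.36-fold lower level in PHZ (log2 fold change -1.24 ± 0.32 SE, 95% interval -2.01 to -0.46; edgeR adjusted p = 0.052). This lies at the edge of the threshold. Without PHZ replicate 1 the log2 fold change was -1.67 and Flt3 was called (adjusted p = 0.0228; 3.83% of genes called lower), and DESeq2 called it with all libraries (adjusted p = 0.00423; 11.5% called lower). Over its 17 alternatives the log2 fold change ran from -1.69 to -1.02 and the adjusted p from 0.00423 to 0.534.

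Transcripts of lymphoid progenitors, in which FLT3 is known to act, were lower in the same libraries. The 11 early lymphoid and B lineage markers found among 12, which include Dntt, Rag1, Ebf1 and Pax5, summed to 234, 131 and 210.3 CPM in PHZ replicates 1, 2 and 3, against 599.7, 753 and 669 CPM in PBS replicates 1, 2 and 3. Of these 11 genes 7 fell and 4 were not called, where 4.17% of all tested genes were called lower. The 8 dendritic cell markers found among 11 summed to 533 to 1579 CPM in PHZ and 1269 to 3255 CPM in PBS libraries, with none of the 6 tested genes called. The part of these cells in the Flt3 values was not tested. Flt3lg, which encodes the FLT3 ligand, stood at 12.7 ± 0.58 CPM in PHZ libraries, against 14.0 ± 3.03 CPM in PBS libraries (SD, n = 3 each; edgeR adjusted p = 0.643), and its estimate of -0.14 changed sign to 0.026 without PBS replicate 2.

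The genes nearest to Flt3 over the 6 libraries, by the root mean square difference of centred log2 CPM, were Adamts10 (0.14), Ptp4a3 (0.15) and Zbtb21 (0.16), where the median over 8727 candidate genes was 0.80. Among the other receptors Il6st was the nearest to Flt3, at 0.51. Adamts10 had 7.87, 3.37 and 5.36 CPM in PHZ replicates 1, 2 and 3, against 12.7, 14.5 and 15.0 CPM in PBS replicates 1, 2 and 3, the same arrangement as Flt3 with replicate 1 the highest PHZ library.

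The window around the annotated Flt3 start is printed with those of Csf2ra and Il3ra, since Flt3 had the largest estimate and the other 2 were the closest pair of profiles among the receptors. The sequences are from RefSeq, build GRCr8, 250 bases before to 50 after the gene's start in the direction of the gene, and 7 of the 8 receptors had an entry. Capitals mark matches, on either strand, to AGATAA, the core bound by GATA factors, or to GAGGAA, a purine-rich core bound by ETS factors such as PU.1. Both motifs were chosen after the sequences had been seen, and they do not overlap each other.
Flt3, chr12:12659785-12660084, plus strand: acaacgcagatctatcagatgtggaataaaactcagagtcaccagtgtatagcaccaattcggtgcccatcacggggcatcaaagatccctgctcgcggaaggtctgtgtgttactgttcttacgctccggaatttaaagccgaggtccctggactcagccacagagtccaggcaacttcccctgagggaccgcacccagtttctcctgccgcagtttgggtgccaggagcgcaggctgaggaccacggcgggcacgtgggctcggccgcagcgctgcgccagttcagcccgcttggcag
Csf2ra, chr14:118068-118367, minus strand: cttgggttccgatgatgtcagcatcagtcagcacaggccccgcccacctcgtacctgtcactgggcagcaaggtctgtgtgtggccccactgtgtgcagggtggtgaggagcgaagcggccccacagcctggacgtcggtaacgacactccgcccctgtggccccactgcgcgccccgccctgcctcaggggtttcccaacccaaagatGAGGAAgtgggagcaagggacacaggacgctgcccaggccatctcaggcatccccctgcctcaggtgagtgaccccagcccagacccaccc
Il3ra, chr12:21437201-21437500, minus strand: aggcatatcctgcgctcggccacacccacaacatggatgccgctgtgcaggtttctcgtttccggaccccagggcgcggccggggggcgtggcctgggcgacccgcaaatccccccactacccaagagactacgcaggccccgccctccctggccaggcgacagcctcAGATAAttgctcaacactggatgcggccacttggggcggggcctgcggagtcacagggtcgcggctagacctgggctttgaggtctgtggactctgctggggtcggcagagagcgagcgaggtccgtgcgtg
The Flt3 window held neither motif. That of Csf2ra held GAGGAA once, which 27.6% of all 33469 promoters of this length held, and that of Il3ra held AGATAA once, as did 11.6%. Of the windows not printed, those of Kit and Il6st held neither motif, while Il1rl1 held GAGGAA once and Csf1r held it 2 times.

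The alpha chains of the GM-CSF and interleukin-3 receptors moved in parallel over the libraries. Csf2ra stood at 69.4, 82.2 and 99.8 CPM in PHZ replicates 1, 2 and 3, against 90.4, 164 and 133 CPM in PBS replicates 1, 2 and 3. Il3ra stood at 19.7, 22.6 and 26.0 CPM in PHZ, against 23.4, 50.4 and 40.2 CPM in PBS replicates 1, 2 and 3. For both genes PBS replicate 1 fell within the PHZ range and PBS replicates 2 and 3 above it, so the groups overlapped. The root mean square difference of their centred log2 CPM was 0.10, the smallest of the 28 pairs of receptors, whose largest was 0.95 for Kit and Il6st. Per length, the ratio of Il3ra to Csf2ra stayed between 0.261 and 0.285 in PHZ and between 0.260 and 0.309 in PBS libraries.

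The estimates for the alpha chains were 1.54-fold lower for Csf2ra (log2 fold change -0.62 ± 0.25 SE, 95% interval -1.21 to -0.03; edgeR adjusted p = 0.13) and 1.67-fold lower for Il3ra (-0.74 ± 0.29 SE, -1.42 to -0.06; edgeR adjusted p = 0.123). Both were called lower without PBS replicate 1, Il3ra with a log2 fold change of -0.99 (adjusted p = 0.0341) and Csf2ra with -0.82 (adjusted p = 0.05, just under the threshold), where 5.22% of all genes were called lower. Without PBS replicate 2, the library with the highest values, the estimates were -0.48 and -0.41. The estimated counts of Csf2ra were not whole numbers in any library, while those of the other 7 receptors were whole in all 6 to the 2 decimals given. An expected count that is not whole comes from reads divided between loci, and how this affects the level of Csf2ra was not tested.

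The summed neutrophil precursor markers were lowest in PHZ replicate 1 and, like both alpha chains, highest in PBS replicate 2. The 9 genes, of which S100a8, S100a9 and Mmp8 made up most of the counts, summed to 5151, 8752 and 9471 CPM in PHZ replicates 1, 2 and 3, against 11425, 22307 and 17125 CPM in PBS replicates 1, 2 and 3. These sums did not overlap between the groups, though none of the 8 tested genes was called, and Ltf had at most 3 counts in a library. The granule protease genes Elane, Prtn3 and Ctsg and the peroxidase gene Mpo were instead lowest in PBS replicate 1, Mpo at 692, 904 and 686 CPM in PHZ replicates 1, 2 and 3, against 299, 1806 and 1584 CPM in PBS replicates 1, 2 and 3. The part of these cells in the alpha chain values was not tested. Scaled to the library total like the marker sums, both alpha chains were lowest in PHZ replicate 2. Csf2ra had 72.4 CPM there and 75.1 CPM in PHZ replicate 1, and Il3ra had 19.9 and 21.3 CPM. The genes nearest to Csf2ra were Rgl2 (0.05), Tpcn1 (0.07) and Wdr98 (0.07), and those nearest to Il3ra were Slco4c1 (0.05), Matk (0.05) and Hp (0.07), where the medians over all candidates were 0.53 and 0.59. Hp, the haptoglobin gene, had 191, 217 and 239 CPM in PHZ replicates 1, 2 and 3, against 232, 430 and 381 CPM in PBS replicates 1, 2 and 3.

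The shared beta chain did not follow its alpha chains. Csf2rb stood at 236, 132 and 196 CPM in PHZ replicates 1, 2 and 3, against 176, 244 and 216 CPM in PBS replicates 1, 2 and 3. PHZ replicate 1 was thus the highest PHZ library for the beta chain and, with TMM scaling, the lowest for both alpha chains. The log2 fold change was -0.17 ± 0.24 SE (95% interval -0.75 to 0.40; edgeR adjusted p = 0.643), and it was 0.034 without PHZ replicate 2. Per length, Csf2ra and Il3ra together gave 1.03, 2.23 and 1.75 times the Csf2rb level in PHZ replicates 1, 2 and 3, against 1.77, 2.41 and 2.21 times in PBS replicates 1, 2 and 3. Il5ra, the interleukin-5 receptor chain that also pairs with the beta chain and marks eosinophils, stood at 28.2 ± 14.4 CPM in PHZ libraries, against 42.6 ± 18.1 CPM in PBS libraries (edgeR adjusted p = 0.373). No Csf2 or Il3 transcript was listed in any library, and Il5 had 1 count in 1 PBS library.

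**Figure D3:**
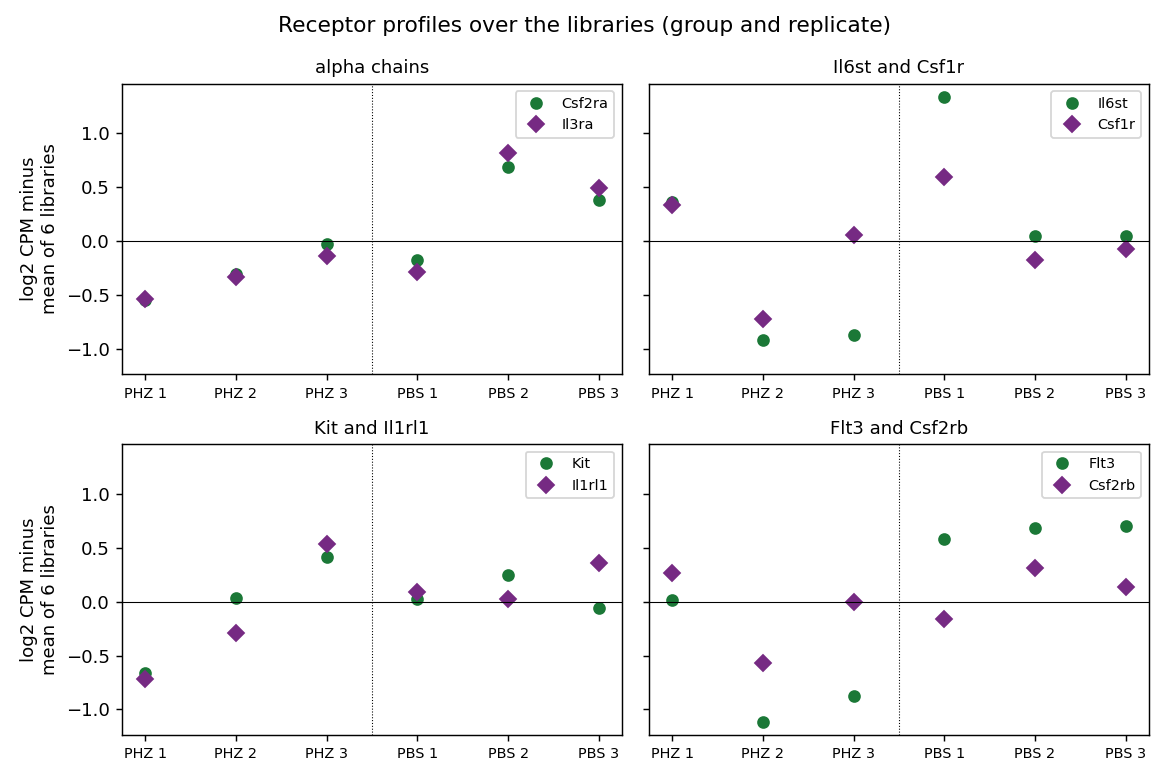
Log2 CPM of each receptor minus its mean over the 6 libraries, PHZ libraries left of the dotted line and PBS libraries right of it, with 2 receptors per panel. Csf2ra and Il3ra nearly coincide, Il6st and Csf1r are both highest in PBS replicate 1, and Kit and Il1rl1 are both lowest in PHZ replicate 1.

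Kit, through whose product the cells were selected, showed no difference beyond the spread between libraries. It stood at 33.9, 55.1 and 71.6 CPM in PHZ replicates 1, 2 and 3, against 54.9, 63.9 and 51.7 CPM in PBS replicates 1, 2 and 3. The PHZ values enclosed all 3 PBS values. The log2 fold change was -0.09 ± 0.27 SE with a 95% interval of -0.73 to 0.56 (edgeR adjusted p = 0.841). Without PHZ replicate 1 the estimate was 0.16, without PBS replicate 2 it was 0.0079, and without PHZ replicate 3 it was -0.34. The gene nearest to Kit was Slc18a2 (0.12), which encodes a vesicular monoamine transporter, followed by Kank2 and Mxi1 (0.13 each), where the median over candidates was 0.47.

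Among the receptors the nearest to Kit was Il1rl1, at 0.24, and Slc18a2 was also among the 3 genes nearest to Il1rl1. Il1rl1 stood at 12.9, 17.4 and 31.0 CPM in PHZ replicates 1, 2 and 3, against 22.7, 21.7 and 27.4 CPM in PBS replicates 1, 2 and 3. The PHZ values lay on both sides of the PBS values, and the log2 fold change was -0.23 ± 0.32 SE (95% interval -1.01 to 0.54; edgeR adjusted p = 0.641), or 0.017 without PHZ replicate 1. The 10 mast cell and basophil markers, such as Cpa3 and Ms4a2, summed to 430.0, 521 and 712 CPM in PHZ replicates 1, 2 and 3, against 756, 1299 and 1106 CPM in PBS replicates 1, 2 and 3, and none of them was called. Mcpt8 alone had 213, 241 and 254 CPM of this in PHZ replicates 1, 2 and 3, against 200, 715 and 623 CPM in PBS replicates 1, 2 and 3. All 10 estimates were below 0, from a log2 fold change of -1.26 for Prss34 to -0.13 for Tpsb2. The 9 stem and early progenitor markers found among 12 summed to 154 to 212 CPM in PHZ and 242 to 377 CPM in PBS libraries. Of the 7 that were tested 3 fell, Procr, Thy1 and Fli1, beside 4.17% of all tested genes, while Cd34 was too low to test, at 0.08 to 0.74 CPM. The others were not called, with log2 fold changes of 0.19 for Gata2, 0.81 for Spink2, -0.03 for Meis1 and -0.92 for Erg. Gata2 alone had 70.7 to 86.9 CPM of the sum in PHZ and 50.4 to 88.4 CPM in PBS libraries. The part of these cells in the Kit and Il1rl1 values was not tested.

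The files also give the length of the transcripts, which for Il1rl1 did not overlap between the groups. The gene is known to give a membrane-bound receptor and a shorter soluble form, and the authors' files list 4 transcripts for it, 2 of them from RefSeq. The length the authors' files give for a gene differs between libraries when the estimated mix of its transcripts differs. For Il1rl1 it was 4605, 4653 and 4586 bases in PHZ replicates 1, 2 and 3, against 4335, 4381 and 4476 bases in PBS replicates 1, 2 and 3. The PHZ libraries were all longer, by 217 bases on average. This was 1 of the 6 receptors with several transcripts, and lengths did not overlap in 12.9% of 4517 such genes with at least 100 counts in every library, so the count among the receptors was near the background. The files give no level per transcript, so which transcripts differ cannot be read from them.

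In the interleukin-1 receptor family, to which ST2 belongs, 1 of the tested genes was called, and it was not Il1rl1. Il1r2, a decoy receptor for interleukin-1 known from neutrophils, fell 3.12-fold, with 37.9, 75.1 and 87.6 CPM in PHZ replicates 1, 2 and 3, against 179, 209 and 237 CPM in PBS replicates 1, 2 and 3 (edgeR adjusted p = 0.0269). Il1rap, the accessory chain that ST2 needs to signal, stood at 16.6 ± 4.29 CPM in PHZ libraries, against 20.4 ± 0.44 CPM in PBS libraries (edgeR adjusted p = 0.367). Il18r1, at 1.34 ± 0.53 against 3.45 ± 0.91 CPM, Sigirr, at 1.81 ± 0.22 against 2.88 ± 0.62 CPM, and Il1r1, at 1.27 ± 0.64 against 1.18 ± 0.31 CPM, were low in all libraries and were not called (edgeR adjusted p = 0.0826, 0.197 and 0.896).

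Csf1r and Il6st had in common that replicate 1 was the highest library of each group. Csf1r stood at 287, 137 and 235 CPM in PHZ replicates 1, 2 and 3, against 342, 200.3 and 215 CPM in PBS replicates 1, 2 and 3. The groups overlapped, with a log2 fold change of -0.20 ± 0.33 SE (95% interval -0.98 to 0.58; edgeR adjusted p = 0.694), and the estimate was 0.085 without PBS replicate 1 and 0.054 without PHZ replicate 2. Il6st stood at 25.5, 10.4 and 10.8 CPM in PHZ replicates 1, 2 and 3, against 50.4, 20.5 and 20.5 CPM in PBS replicates 1, 2 and 3. PHZ replicate 1 lay above PBS replicates 2 and 3, so these groups overlapped too, and the log2 fold change of -0.96 ± 0.52 SE had a 95% interval of -2.22 to 0.29 (edgeR adjusted p = 0.238).

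With both libraries numbered 1 left out, a choice made after the values were seen, the estimate for Il6st was -0.94 and it was called lower (adjusted p = 0.0217), as were Flt3, Il3ra and Csf2ra (adjusted p = 0.0137, 0.0249 and 0.0423), where 9.29% of all genes were called lower. With PBS replicate 1 alone left out, the Il6st estimate was -0.39.

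The summed dendritic cell markers were arranged over the libraries as Il6st was, but the sum was mostly 1 gene, Cd74. Ciita, Bst2, Batf3 and Zbtb46 were also highest in PBS replicate 1, the last 2 too low to test. Scaled to the library total, Irf8, Tcf4 and Clec9a were highest in PBS replicate 2, while with TMM scaling Irf8 was highest in PBS replicate 3. The 8 dendritic cell markers summed to 1579, 533 and 765 CPM in PHZ replicates 1, 2 and 3, against 3255, 1321 and 1269 CPM in PBS replicates 1, 2 and 3. Cd74, the invariant chain of MHC class II, made up 1339, 424 and 621 CPM of this in PHZ replicates 1, 2 and 3, against 2986, 1056 and 1023 CPM in PBS replicates 1, 2 and 3, and was the gene nearest to Il6st (0.12; median over candidates 0.82). The 15 monocyte and macrophage markers, of which Lyz2 made up the most, summed to 15266, 8656 and 11166 CPM in PHZ replicates 1, 2 and 3, against 14660, 16096 and 14450 CPM in PBS replicates 1, 2 and 3, with none of 14 tested genes called and Marco at or near 0. The 5 eosinophil markers, mostly Prg2 and Epx, summed to 10603, 5311 and 5638 CPM in PHZ replicates 1, 2 and 3. In PBS replicates 1, 2 and 3 they summed to 15237, 11024 and 9553.5 CPM, and none of the 5 was called. This sum was thus highest in replicate 1 of each group, as were Csf1r and Il6st, while Alox5 of the same list was lowest there. The genes nearest to Csf1r were Spcs3 (0.07), Cysltr1 (0.08) and Lrba (0.09). The part of these cells in the values was not tested.

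PBS replicate 1 also stood apart in stromal transcripts and in the ligand genes Kitlg and Il33. The 9 stromal and endothelial markers, such as Cxcl12 and Col1a1, summed to 62.9, 29.4 and 43.7 CPM in PHZ replicates 1, 2 and 3, against 719, 95.8 and 85.2 CPM in PBS replicates 1, 2 and 3. Kitlg, which encodes stem cell factor, the ligand of KIT, had 2.42, 1.44 and 1.76 CPM in PHZ replicates 1, 2 and 3, against 24.2, 1.92 and 1.77 CPM in PBS replicates 1, 2 and 3. Its log2 fold change was -2.31 with all libraries (edgeR adjusted p = 0.194) and 0.028 without PBS replicate 1. Il33, the ligand of ST2, had 1.38, 0.75 and 0.38 CPM in PHZ replicates 1, 2 and 3, against 9.72, 0.70 and 1.25 CPM in PBS replicates 1, 2 and 3 (edgeR adjusted p = 0.206), and its log2 fold change of -2.19 was -0.19 without PBS replicate 1.

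Csf1, which encodes the main CSF1R ligand, had 25.6, 17.1 and 27.8 CPM in PHZ replicates 1, 2 and 3, against 31.7, 46.6 and 41.3 CPM in PBS replicates 1, 2 and 3. Its groups did not overlap, and the estimate was 1.70-fold lower in PHZ (log2 fold change -0.76 ± 0.23 SE; edgeR adjusted p = 0.0733). Il34, the second CSF1R ligand, had at most 7 counts in a library. Of the 13 ligand genes 11 were listed, 7 were tested and none was called, with 6 estimates below 0 and a median log2 fold change of -0.76.

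Of the ligands that signal through gp130, Osm, which encodes oncostatin M, stood at 188 ± 50.8 CPM in PHZ libraries, against 250 ± 55.6 CPM in PBS libraries (SD, n = 3 each; edgeR adjusted p = 0.277). Lif stood at 0.74 ± 0.44 and 1.81 ± 1.04 CPM and Cntf at 1.01 ± 0.32 and 0.59 ± 0.22 CPM (edgeR adjusted p = 0.211 and 0.312), while Il6 had at most 7 counts and Il11 at most 1 in a library. Among the partner chains, Il6r, the interleukin-6 receptor, had 108, 76.4 and 125 CPM in PHZ replicates 1, 2 and 3, against 137, 168 and 167 CPM in PBS replicates 1, 2 and 3, without overlap (log2 fold change -0.61 ± 0.20 SE; edgeR adjusted p = 0.0896). Il27ra stood at 2.41 ± 0.48 and 4.53 ± 1.2 CPM and Il11ra1 at 1.12 ± 0.50 and 1.49 ± 0.92 CPM (edgeR adjusted p = 0.112 and 0.643), and the estimate for Il11ra1 was 0.22 without PBS replicate 1. Osmr had 24 counts in PBS replicate 1, 3 in PHZ replicate 1 and 0 in the other 4 libraries, and Lifr had 1 to 35 counts, so both fell below the filter, as did Pdgfra and Pdgfrb. Of the 15 partner and related chains 13 were listed, 9 were tested, 1 fell, Il1r2, and 8 were not called, beside 4.17% of all tested genes called lower, with a median log2 fold change of -0.61.

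**Figure D4:**
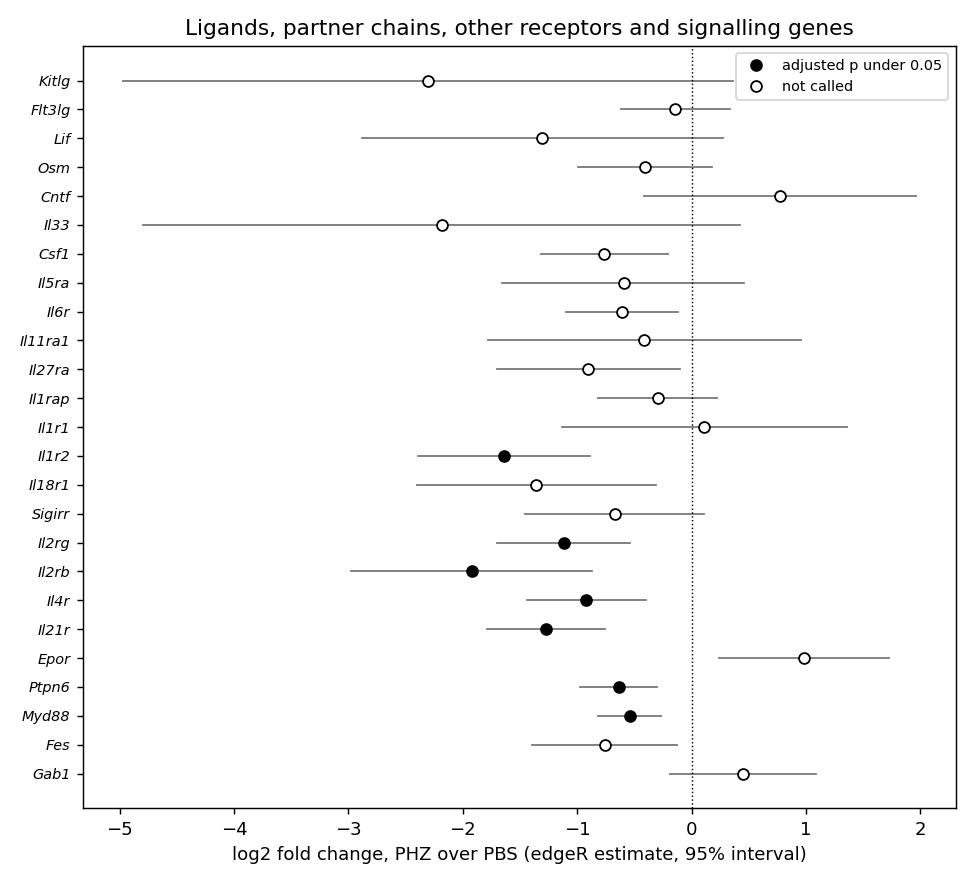
Estimated log2 fold change, PHZ over PBS, with 95% intervals, of the tested ligands, partner chains, other receptors and signalling genes named in the text. Filled points mark the 7 genes with an adjusted p under 0.05, all lower in PHZ, and the intervals of Kitlg and Il33 are the widest.

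Of 24 other cytokine and chemokine receptors, 22 were listed and 19 tested, of which 4 fell, none rose and 15 were not called (4.17% of all tested genes were called lower), with a median log2 fold change of -0.33. The 4 that fell were the common gamma chain gene Il2rg and 3 chains that pair with it. Il2rg fell 2.17-fold, with 64.9, 35.3 and 43.1 CPM in PHZ replicates 1, 2 and 3, against 118, 90.9 and 102 CPM in PBS replicates 1, 2 and 3 (edgeR adjusted p = 0.0349). Il21r, the interleukin-21 receptor, fell 2.41-fold, with 22.4, 13.7 and 22.2 CPM in PHZ replicates 1, 2 and 3, against 43.0, 45.9 and 51.8 CPM in PBS replicates 1, 2 and 3 (edgeR adjusted p = 0.0226). Il4r fell 1.89-fold and Il2rb 3.79-fold (edgeR adjusted p = 0.041 and 0.039), Il2rb at 3.76 ± 0.32 CPM in PHZ libraries, against 14.3 ± 8.97 CPM in PBS libraries. Grouped after their values were seen, 4 of 6 tested genes of the gamma chain family were called and 0 of the other 13. Il7r and Il9r were the 2 of that family not called. The 10 T and NK lineage markers found among 11 summed to 65.1 to 83.5 CPM in PHZ and 65.8 to 177 CPM in PBS libraries, and 5 of the 8 tested fell, again beside 4.17% of all tested genes. Most of this sum was Nkg7, which was not called, at 51.3 to 74.7 CPM in PHZ and 33.6 to 130 CPM in PBS libraries. The part of these cells and of the B lineage cells described with Flt3 in the receptor values was not tested. The erythropoietin receptor gene Epor had the highest estimate of these 19 genes, with 75.3, 178 and 144 CPM in PHZ replicates 1, 2 and 3, against 75.3, 66.5 and 59.0 CPM in PBS replicates 1, 2 and 3 (log2 fold change 0.98 ± 0.31 SE; edgeR adjusted p = 0.0792). Of the 9 tested erythroid markers, Epor among them, 5 rose, namely Gata1, Klf1, Tfrc, Car1 and Ank1, where 8.99% of all tested genes were called higher, while the sum of the list, mostly Hba1, was 65731 to 160838 CPM in PHZ and 73264 to 146878 CPM in PBS libraries.

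Downstream of the receptors, 32 of 35 signalling genes were tested, of which 2 fell, none rose and 30 were not called, a share called of the order of the 4.17% of all tested genes called lower, with 27 estimates below 0 and a median log2 fold change of -0.46. Ptpn6, which encodes SHP-1, a phosphatase that restrains KIT and cytokine receptor signalling, fell 1.56-fold, with 242, 199 and 250.4 CPM in PHZ replicates 1, 2 and 3, against 354, 377 and 344 CPM in PBS replicates 1, 2 and 3 (edgeR adjusted p = 0.0361). Myd88, the adaptor of ST2 and the interleukin-1 receptor family, fell 1.46-fold, with 80.5, 74.9 and 85.4 CPM in PHZ replicates 1, 2 and 3, against 111, 118 and 122 CPM in PBS replicates 1, 2 and 3 (edgeR adjusted p = 0.0321). The lowest estimate was that of Fes, a tyrosine kinase gene of myeloid cells (log2 fold change -0.76; edgeR adjusted p = 0.0975), and the highest that of Gab1, which encodes a docking protein (0.45; edgeR adjusted p = 0.278).

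The calls of Il1r2, Il2rg, Il2rb, Il4r, Il21r, Ptpn6 and Myd88 depended on which libraries were kept. Without PBS replicate 2 or without PBS replicate 3 edgeR called 0 genes of all those tested, against 3325 and 3291 at an unadjusted p under 0.05, while leaving out PHZ replicate 2 gave 266 calls and leaving out PHZ replicate 3 gave 572. Without either PBS library the adjusted p of the 7 genes ran from 0.0995 to 0.15. The same 7 genes kept estimates below 0 in each fit that left out 1 library, between -2.18 and -0.49. Without the 3 libraries whose Y-linked transcripts go against the sex label edgeR also called 0 genes (1480 at an unadjusted p under 0.05), with log2 fold changes of -1.16 for Flt3, -0.92 for Il3ra, -0.81 for Csf2ra and -0.20 for Il6st from 2 PHZ libraries and 1 PBS library.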

How the data were processed

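Poly(A) RNA of c-kit+ marrow cells was sequenced from 6 samples, 3 PHZ and 3 PBS. Per the submitters' processing notes, HISAT, GATK, RSEM and the build rn6 were used, with no roles or versions given. The authors deposited, per the file headers, an expected count (estimated reads per gene, not scaled to depth), an FPKM value and a gene length for each library. A gene not listed in a library was set to 0. The authors' deposited comparison gives each group's mean FPKM, their log2 ratio (PHZ over PBS) and a Probability score, whose method is not given in the sources used here. Its means equal those of the library files within 0.001 in 100% of genes.

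Expected counts were rounded and tested with edgeR 4.0.16 under R 4.3.3, with filterByExpr, TMM factors, robust glmQLFit and glmQLFTest on treatment alone, and Benjamini-Hochberg adjustment over all 13547 tested genes and a threshold of 0.05. The SE was derived from the F statistic (absolute estimate divided by its root), and 95% intervals use the fit's degrees of freedom, 4.22 to 6.69. CPM of tested receptors and pathway genes is TMM-scaled. CPM of marker sums, Y-linked genes, Hba1, Lyz2, Cd34, Mpo, Cd74, Mcpt8, Gata2 and Nkg7 is per library total. Replicates differed by far more than counting noise (chi-square per degree of freedom 49.4 to 184.8). A count of 0 allows up to 3 counts, or 0.154 to 0.227 CPM, for counting error only.

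Alternatives were DESeq2 1.42.0, limma 3.58.1 on log2(FPKM + 0.1), other scalings, no filter, left-out libraries, a replicate block and sex terms. The fits were tested on simulated data. The receptors, lists and tests were chosen with earlier results of these data known. Named genes are all 8 receptors, every ligand and partner chain with counts, the called, lowest and highest genes of the other lists, and the 3 nearest profiles of each receptor among genes averaging at least 2 on the log2 CPM scale.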

Additional observations from a re-analysis of the deposited data

How the results depend on the processing

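The number of called genes, 1783, depended on the fit: DESeq2 called 3469, labelled sex as a covariate left 928, Y-linked transcripts as a covariate 435, both libraries numbered 1 left out gave 2920, and it ran from 0 to 1744 when 1 library was left out. No gene was called without the libraries against their sex label. Of the receptors none was called with all libraries in edgeR with TMM scaling. With RLE scaling 1 was called, with upper-quartile scaling 1, with globin genes left out 1 and with DESeq2 1, in each case Flt3. With both libraries numbered 1 left out 4 were called, and 0 to 2 with 1 library left out.

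With the replicate block 0 genes were called (4641 at an unadjusted p under 0.05, and 3469 by DESeq2 without a block). Deviations of same-numbered libraries correlated at 0.21, 0.06 and 0.01 across genes, against -0.166 to 0.154 for libraries with different numbers. The numbers were not taken to pair the libraries, though the highest value, 0.21, was that of the libraries numbered 1. The estimate for Il6st under the block was -0.96 (adjusted p = 0.0555).

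The estimates of 8 genes changed sign in at least 1 alternative. With 1 library left out Kit ran from -0.34 to 0.16, Csf2rb from -0.36 to 0.034, Il1rl1 from -0.65 to 0.017, Csf1r from -0.44 to 0.085, Kitlg from -2.79 to 0.028, Flt3lg from -0.29 to 0.026, Il11ra1 from -0.82 to 0.22 and Il1r1 from -0.23 to 0.47. With both libraries numbered 1 left out Kit was at 0.15, Il11ra1 at 0.46 and Il1r1 at -0.0086. Without the libraries against their sex label Kitlg was at 0.12 and Il11ra1 at 0.22. Il1r1 was at -0.0405 with limma and -0.012 with labelled sex. The causes were not tested. The other 25 named genes with alternatives kept their direction in all 17. Leaving out a library leaves 2 in that group, and 2 alternatives, the Y-linked covariate and both libraries numbered 1, were chosen after the data were seen.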
